A study of Mus musculus with 12 samples.

Results

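A set of 9 genes of the antigen receptor of CD8+ T cells were followed through the circadian day. They are the constant-region genes of the T cell receptor (Trac, Trbc1 and Trbc2), the genes of the CD3 signalling chains (Cd3e, Cd3d, Cd3g and Cd247) and the genes of the CD8 co-receptor (Cd8a and Cd8b1). The set was chosen by name, and all 9 were found among the 50600 genes of the files and among the 16396 that were tested. The cells were CD8+ T cells of lymph nodes from male C57BL/6J mice aged 8 weeks. The animals were held in constant darkness, so that only the internal clock kept time. Cells were collected at circadian time (CT) 2, 6, 10, 14, 18 and 22 h on each of 2 days, which gave 12 libraries of polyadenylated RNA, 1 per time and day. The labels name no mutation or drug in any group. How many mice gave a library, and how the cells were isolated, is not in the labels, so p-values measure the spread between these libraries only.

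The T cell receptor has a disulphide-linked alpha and beta chain that bind a peptide held by an MHC molecule, and neither chain can signal alone. CD3 epsilon pairs with CD3 delta and with CD3 gamma, and these pairs join the receptor with a homodimer of the zeta chain, the product of Cd247. The cytoplasmic tails of these chains carry the tyrosine motifs that the kinase Lck phosphorylates and that ZAP-70 then binds. CD8 alpha and beta bind MHC class I beside the receptor, and the tail of CD8 alpha carries Lck to it.

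The libraries held 24689964 to 33497078 stranded counts on genes, and each of the 9 genes had at least 6059 of them in each library. The labelled cell type was checked against its markers and those of other cells. Ptcra, the pre-receptor alpha chain of thymocytes, had 0 to 2 counts per library. Cd4 had 41.5 ± 7.43 CPM (SD, n = 12; counts scaled to library size with TMM factors) against 1406 ± 99.6 CPM for Cd8a. Trdc, of the gamma delta receptor, had 19.7 ± 1.01 CPM. Lyz2, of macrophages and other myeloid cells, had 396 ± 174 CPM and ran from 165 to 722 CPM. In such bulk samples, fewer cells of a type and less RNA per cell cannot be told apart. Both CT2 libraries stood apart, each in its own way. CT2 of day 1 had the largest gap to its partner of the other day: the median absolute log2 difference over 8931 genes was 0.18 at CT2 and 0.054 to 0.097 at the other times. In that library short transcripts were shifted up and long ones down, with a median log2 shift of 0.14 in the shortest of 4 equal length bins of genes and -0.12 in the longest. CT2 of day 2 had the highest share of antisense reads over all genes, 6.73% against 5.42% to 6.40%, and 3 of 9 marker lists of other cells had their lowest sum there. These sums were 443 CPM for 11 dendritic cell markers against 463 to 805 in the other 11 libraries, 1894 CPM for 11 B cell markers against 2110.2 to 2792, and 13.3 CPM for 8 neutrophil markers against 13.4 to 102. Low sums were not particular to CT2 of day 2. CT10 of day 1 had the lowest sums of the gamma delta T cell, CD4 T cell, NK cell, and monocyte and macrophage lists. It also had the next highest share of antisense reads, 6.40%. Because both CT2 libraries stood apart, results at CT2 are given for each library.

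Trac is the constant gene of the alpha chain and lies at chr14:54220521-54224206, plus strand, in GRCm38. It ran from 585 CPM in CT6 of day 1 over a median of 653 to 736 CPM in CT2 of day 2. Its CT2 libraries, at 715 and 736 CPM, were the top 2 of the 12, and the other 10 lay between 585 and 698. In TPM, which is per transcript length, CT2 of day 1 was instead its lowest library, at 1105 TPM. The beta chain uses 1 of 2 constant genes, depending on which joining cluster a T cell rearranged. Trbc1 lies at chr6:41538218-41539881 and Trbc2 at chr6:41546730-41548352, both on the plus strand and 6849 bases apart. Trbc1 ran from 320 CPM (CT14 of day 1) over a median of 340 to 440 CPM (CT2 of day 1). Trbc2 ran from 494 CPM (CT18 of day 1) over a median of 611 to 833 CPM (CT2 of day 1). For both genes the 2 CT2 libraries lay above all others: 440 and 385 CPM against 320 to 361 for Trbc1, and 833 and 708 CPM against 494 to 644 for Trbc2.

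The coding parts of Trbc1 and Trbc2 are so alike that their reads are hard to assign. Over 518 coding bases in GENCODE M21 they differ at 23 and are 95.56% identical, and the first coding exon of 375 bases differs at a single base, C260A (Trbc1 base, position from the first coding base, Trbc2 base). The longest identical run is 259 bases. Coding bases 241 to 518 are shown because they hold all 23 differences, which are in capitals. The stretch runs from within the first coding exon (chr6:41538218-41538592 in Trbc1, chr6:41546730-41547104 in Trbc2) to the end of the last (chr6:41539645-41539662 and chr6:41548161-41548178).
Trbc1: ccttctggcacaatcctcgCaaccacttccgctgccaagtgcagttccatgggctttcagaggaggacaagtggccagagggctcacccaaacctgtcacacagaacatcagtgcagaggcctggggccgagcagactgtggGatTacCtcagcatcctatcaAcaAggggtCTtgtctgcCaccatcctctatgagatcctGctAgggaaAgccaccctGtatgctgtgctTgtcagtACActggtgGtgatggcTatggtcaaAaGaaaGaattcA
Trbc2: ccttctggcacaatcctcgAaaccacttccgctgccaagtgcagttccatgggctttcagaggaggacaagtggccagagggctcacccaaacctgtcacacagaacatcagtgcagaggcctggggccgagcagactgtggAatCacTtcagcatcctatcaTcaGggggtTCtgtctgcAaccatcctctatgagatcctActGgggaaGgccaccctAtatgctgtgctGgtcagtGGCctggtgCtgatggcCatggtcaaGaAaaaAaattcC
The capitals cluster after the first coding exon, where 22 of the 143 bases differ.

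The counting route mattered for these genes. The stranded counts come from STAR, which counts reads that map to 1 place, and RSEM shares ambiguous reads between genes by a model. For the 7 other genes, stranded counts were 96.6% to 116% of the RSEM counts in every library. For Trbc2 they were 82.4% to 89.4% in 11 libraries and 71.4% in CT18 of day 1. Among 6742 genes with at least 500 counts by both routes, Trbc2 in that library was the only one more than 10% below its lowest share elsewhere. The stranded ratio of Trbc1 to Trbc2 was accordingly 0.676 in CT18 of day 1 and 0.513 to 0.573 in the others. By RSEM it was 0.512 there, inside the range of 0.480 to 0.522 of all 12, with a mean of 0.504 ± 0.0145 (SD, n = 12). The low stranded Trbc2 value of CT18 on day 1 was thus seen by 1 counting route only, and its cause was not tested.

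**Figure D1:**
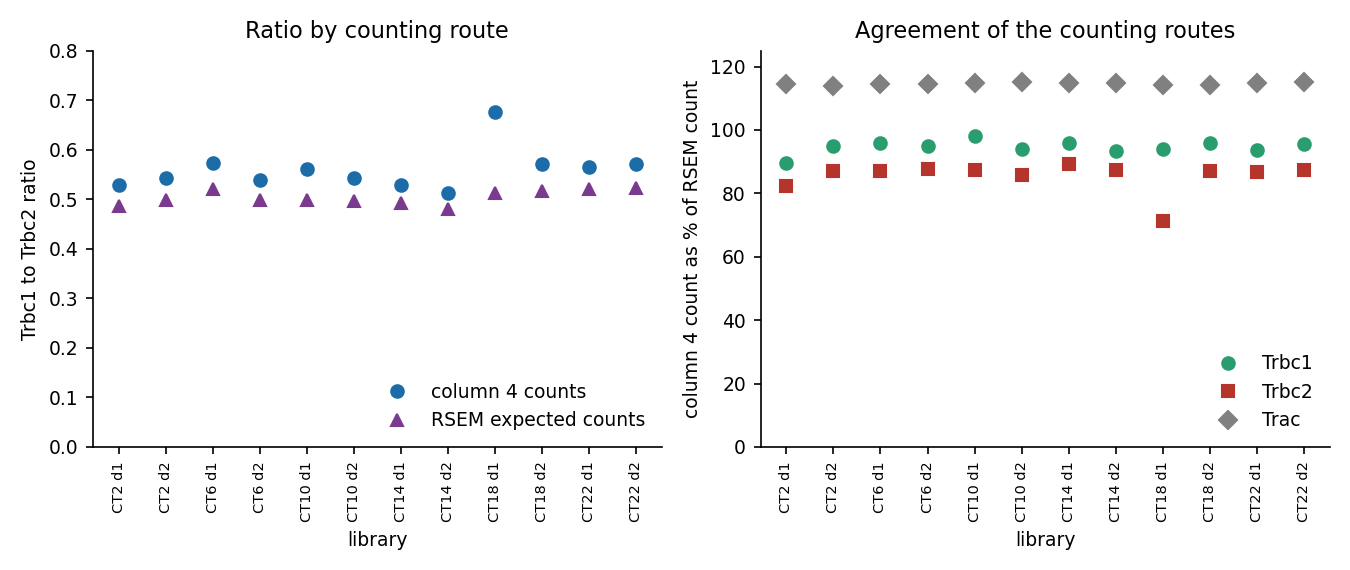
Ratio of Trbc1 to Trbc2 in each library by both counting routes (left), and the stranded count of Trbc1, Trbc2 and Trac as a percentage of the RSEM count (right), with libraries by circadian time and day (d1, d2). The stranded ratio reaches 0.676 in CT18 of day 1, where Trbc2 drops to 71.4% of its RSEM count, while the RSEM ratio stays between 0.480 and 0.522.

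Cd3g, Cd3d and Cd3e form a cluster on chromosome 9. Cd3g (chr9:44969572-44980431, minus strand) and Cd3d (chr9:44981786-44987339, plus strand) are transcribed away from each other from starts 1355 bases apart, and Cd3e (chr9:44998740-45009627, minus strand) lies beyond Cd3d. Cd3g, whose product pairs with CD3 epsilon, ran from 586 CPM (CT6 of day 1) over a median of 632 to 823 CPM (CT2 of day 1). Its CT2 libraries had 823 and 692 CPM and the other 10 had 586 to 652, with no overlap. Cd3d, of the other epsilon partner, ran from 395 CPM (CT22 of day 2) over a median of 441 to 492 CPM (CT2 of day 1). Its CT2 values of 492 and 473 CPM also lay above the 395 to 452 of the other times. Cd3e, of the chain that both pairs share, behaved differently. Its lowest and its highest library were both CT2, at 474 CPM on day 1 and 607 CPM on day 2, around a median of 564. Cd247, of the zeta chain (chr1:165788681-165877277, plus strand), ran from 230 CPM (CT18 of day 1) over a median of 251 to 296 CPM (CT2 of day 1). Its CT2 value of day 2, 272 CPM, lay below the 277 CPM of CT10 on day 1. Cd3e overlaps the antisense gene Gm48719 on the opposite strand, and its unstranded counts were 82.1% to 84.7% of the stranded ones, against 97.0% to 105% for the other 8 genes.

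Cd8b1 (chr6:71322788-71337494) and Cd8a (chr6:71373427-71379173) are neighbours on the plus strand, 35933 bases apart. Cd8a ran from 1234 CPM (CT6 of day 1) over a median of 1409 to 1613 CPM (CT2 of day 2). Its CT2 library of day 1, at 1408 CPM, lay in the middle of the range of the other times, 1234 to 1529. Cd8b1 ran from 978 CPM (CT22 of day 2) over a median of 1093 to 1282 CPM (CT2 of day 1). Its CT2 values of 1282 and 1274 CPM were close to each other and above the 978 to 1200 CPM of the other 10 libraries.

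**Figure D2:**
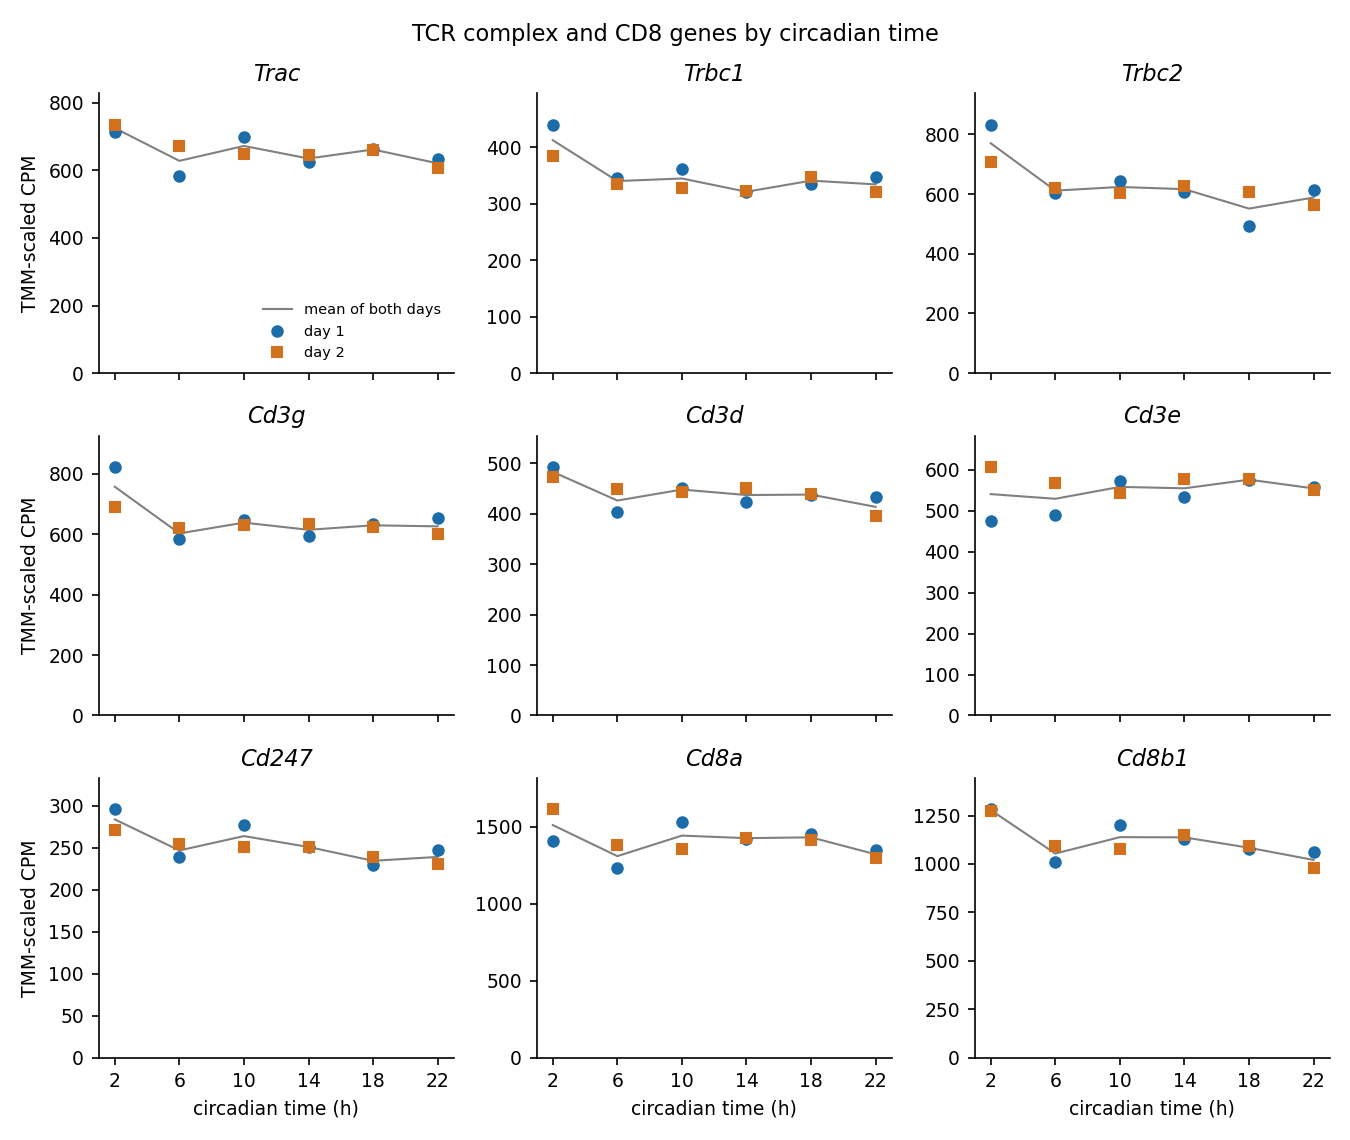
Level of each gene in TMM-scaled CPM against circadian time in hours, with circles for day 1, squares for day 2 and a line through the mean of both days. Each axis starts at 0. In CPM, CT2 has the highest mean for 8 of the 9 genes, while the 2 CT2 points of Cd3e lie at its extremes, 474 and 607 CPM.

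Between genes, levels were compared in TPM, which is per transcript length. Trbc2 led with 1651 ± 122 TPM (SD, n = 12 here and below), rank 111 among all genes. Trac followed with 1193 ± 77.0 TPM and Cd8b1 with 946 ± 61.2 TPM. Trbc1 and Cd3g stood level at 779 ± 51.8 and 776 ± 39.5 TPM. Cd8a had 644 ± 54.2 TPM, below Cd8b1 although it had more counts, since its transcripts are longer (2742 against 1483 bases). Cd3e had 503 ± 53.0, Cd3d 353 ± 15.1 and Cd247 220 ± 11.0 TPM. Each gene was above the next of this order in 12 of 12 libraries except Trbc1, which was above Cd3g in 6 of 12. Neighbouring ranges across libraries overlapped from Cd8b1 down to Cd3d, and did not overlap between Trbc2, Trac and Cd8b1 or between Cd3d and Cd247. With stranded counts per length, Trbc2 was above Trac in 10 of 12 libraries and Cd3g moved above Trbc1.

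**Figure D3:**
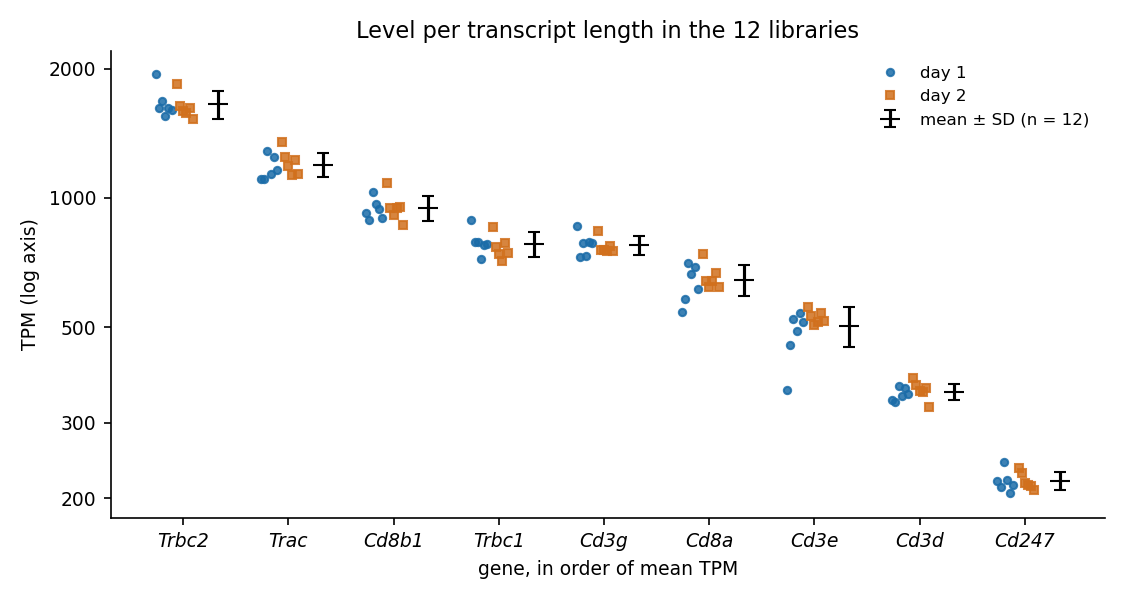
TPM of each gene in the 12 libraries on a log axis, in order of the mean, with circles for day 1, squares for day 2 and black bars for the mean ± SD (n = 12). Trbc1 and Cd3g share a level near 780 TPM, and the lowest point of Cd3e, 357 TPM, is CT2 of day 1.

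The series asks which transcripts cycle, and none of the 9 genes passed a test for a 24 h wave. The wave was a cosine and sine fitted together by edgeR's quasi-likelihood F test, with Benjamini-Hochberg adjustment over all tested genes and a threshold of 0.05. The 0 genes that passed stand beside 0% of all tested genes. At an unadjusted p under 0.05 there was 1 of the 9, Trbc1, beside 13.3% of all tested genes. DESeq2 passed 246 of all genes and limma on log2(TPM + 1) passed 0, and neither passed any of the 9. Trbc2 had a fitted amplitude of 0.14 ± 0.06 on the log2 scale (SE), with a peak at 3.95 ± 1.58 h. Trbc1 had 0.12 ± 0.04 with a peak at 2.39 ± 1.40 h (adjusted p = 0.369 by edgeR). Their order depended on the counts, since by RSEM Trbc1 had 0.1361 and Trbc2 0.1282, and without CT18 of day 1 Trbc1 had 0.1165 and Trbc2 0.1039. Without CT2 of day 1 they were 0.0631 and 0.0855. Cd8a had 0.01 ± 0.04, which became 0.0639 without CT2 of day 2 and 0.0572 on TPM. Cd3e had 0.05 ± 0.04. An amplitude 2 SE above the estimate would be a change from trough to peak of 1.15-fold for Cd8a and 1.43-fold for Trbc2, the lowest and highest of the 9 with all 12 libraries. The median amplitude of the 9 genes was 0.05, beside 0.06 for the 2244 tested genes of at least 100 CPM and 0.10 for all tested genes. The 19 genes of a core clock list had a median of 0.17, and 0 of them passed either. All 19 lay below 100 CPM, the highest at 50.5 CPM, so the 0.06 is not a background of their level. Per2, a repressor of the clock, had 0.23 ± 0.05 with a peak at 19.0 h (adjusted p = 0.238 by edgeR), and Tef, a clock output factor, had 0.18 ± 0.04 with a peak at 11.9 h (the same adjusted p).

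A test of the 6 circadian times that allowed any shape also passed 0 of the 9 genes by edgeR, beside 0.256% of all tested genes. At an unadjusted p under 0.05 there were 5 of 9 (Trbc1, Trbc2, Cd8b1, Cd247 and Cd3g), beside 12.7% of all tested genes. Adjusted p ran from 0.240 for Trbc1 to 0.951 for Cd3e by edgeR. DESeq2 passed 3 of the 9, beside 3.15% of all tested genes: Trbc2 (adjusted p = 0.0104), Cd8b1 (adjusted p = 0.0167) and Trbc1 (adjusted p = 0.0207). In edgeR 3 passed once CT2 of day 2 was left out (Cd3g, Trbc1 and Trbc2), beside 10.2% of the 17030 genes that the filter then kept. With the same 16396 genes tested, 3 of the 9 again passed, beside 11.0%. Once CT2 of day 1 was left out, 0 of the 9 passed, with 664 genes in all. Without a filter on low counts 4 passed in edgeR (Cd3g, Cd8b1, Trbc1 and Trbc2), beside 7.17% of 29911 genes. In mean CPM the highest time was CT2 for 8 of the 9 genes and CT18 for Cd3e, beside CT2 for 23.3% of all tested genes. In mean TPM it was CT2 for 4 (Cd3g, Cd8b1, Trbc1 and Trbc2), beside 9.76%. From the lowest time to the highest, Trbc2 differed by 0.48 ± 0.11 on the log2 scale (CT18 to CT2), where its lowest library is the one that only stranded counts put low. In mean TPM its lowest time was CT22, at 1561 TPM, and CT2 had 1893 TPM, a log2 difference of 0.28. In CPM Trbc1 differed by 0.36 ± 0.08 (CT14 to CT2), Cd3g by 0.33 ± 0.09 (CT6 to CT2) and Cd8b1 by 0.32 ± 0.08 (CT22 to CT2).

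After these values were seen, CT2 was set against the mean of the other 5 times. By edgeR 0 of the 9 genes passed, beside 0.0061% of all tested genes, and adjusted p ran from 0.157 to 0.873. DESeq2 passed 4, beside 0.86% of all tested genes: Trbc2 (adjusted p = 0.00284), Trbc1 (adjusted p = 0.00294), Cd3g (adjusted p = 0.00824) and Cd8b1 (adjusted p = 0.00970). In edgeR 5 passed without CT2 of day 2, these 4 and Cd247, beside 11.9% of the 17030 genes then kept. With the same 16396 genes tested, 5 passed beside 12.6%. Without a filter 5 passed, beside 3.15% of 29911 genes, and without CT2 of day 1 there were 0. At an unadjusted p under 0.05 there were 7 of 9, beside 14.6% of all tested genes. The log2 difference was 0.37 ± 0.08 for Trbc2, 0.30 ± 0.06 for Trbc1, 0.28 ± 0.07 for Cd3g and 0.24 ± 0.06 for Cd8b1. Cd247 had 0.20 ± 0.06, Trac 0.17 ± 0.06 and Cd3d 0.16 ± 0.06. Cd8a had 0.13 ± 0.07 and Cd3e -0.04 ± 0.08. By limma on log2(TPM + 1) each was lower: 0.24 for Trbc2, 0.20 for Trbc1, 0.16 for Cd3g and 0.10 for Cd8b1. Cd247 had 0.06, Trac 0.04, Cd3d 0.03, Cd8a -0.02 and Cd3e -0.20 on that scale. There 3 of the 9 had an unadjusted p under 0.05, beside 2640 of 16396 genes. Single CT2 libraries moved several of the differences in CPM. Without CT2 of day 1 the difference was 0.24 for Trbc2, 0.19 for Trbc1, 0.15 for Cd3g and 0.12 for Cd3e, and without CT2 of day 2 it was 0.0227 for Cd8a and -0.23 for Cd3e. The median of the 9 was 0.20, beside -0.0033 over all tested genes. Both CT2 libraries lay above the 10 others in CPM for 6 genes (Cd3d, Cd3g, Cd8b1, Trac, Trbc1 and Trbc2), beside 3.69% of all tested genes, and for 6 with RLE scaling, beside 3.28%. Both lay below the others for 0 of the 9, beside 1.87% (2.13% with RLE scaling).

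The scale changed the picture of CT2 on day 1. In TPM the median gene of at least 10 CPM stood at -0.29 on the log2 scale in that library, relative to the 10 libraries of other times, and at 0.0034 in CT2 of day 2. On that scale both CT2 libraries were above all others for 3 of the 9 genes, Cd3g, Trbc1 and Trbc2, beside 0.915% of all tested genes, and both were below for 0 of the 9, beside 4.55%. For Trbc2 they had 1947 and 1840 TPM against 1524 to 1684. For Trbc1 they had 890 and 857 TPM against 711 to 790, and for Cd3g 861 and 835 TPM against 728 to 790. By contrast, CT2 of day 1 alone lay below the 10 libraries of other times for Cd3e, Cd8a and Trac. The values were 357 TPM against 454 to 540, 543 against 583 to 706, and 1105 against 1107 to 1287. The share of all genes with this was not computed. Relative to the median gene of the same library, CT2 of day 1 was above the other times for 8 of the 9 genes in TPM and CT2 of day 2 for 9 of 9. Cd3e was the exception, at -0.24 in CT2 of day 1 and 0.11 in CT2 of day 2. By definition, as many genes lie above such a median as below it. In CT2 of day 1 the shortest length bin stood at -0.091 in TPM, above the median gene at -0.29. The counts are therefore no result about these genes. Of the 9 genes, 7 belong to the shortest length bin, which was shifted up by 0.14 in CPM in CT2 of day 1. Against that bin's shift, Trbc2 was still 0.34 up in that library, Cd3g 0.26 and Trbc1 0.25, while Trac was at 0.01 and Cd3d at 0.05. Cd3e is in the same bin and was at -0.37. In CT2 of day 2 the shift of the same bin was 0.016, and each of the 9 genes lay 0.11 to 0.23 above the other times after the shift of its own bin. The share of antisense reads was highest in that library for 8 of the 9 genes, 3.11% for Cd3e against a median of 1.87%. It was also highest there over all genes together, at 6.73%. How many single genes had their highest share there was not computed, so the count is not a trait of the 9. In CT2 of day 2, the summed B cell, dendritic cell and neutrophil markers were also at their lowest. The 2 CT2 libraries differed in monocyte and macrophage markers. These 15 genes summed to 932 CPM on day 1 and 341 CPM on day 2. Both sums lay within the 334 to 1400 CPM of the other times, and none of the 15 was at 0 in all libraries. The part of transcript length, antisense reads and RNA of other cells in the CT2 values was not tested.

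Between days, differences were small for every gene. Day 2 minus day 1 lay between -0.07 (Trbc1) and 0.10 (Cd3e) on the log2 scale. By edgeR 0 of 9 passed, beside 0% of all tested genes, and at an unadjusted p under 0.05 there were 0 of 9, beside 1.82%. DESeq2 passed 6 of all genes and 0 of the 9. Cd3e had the smallest p of the 9 (0.10 ± 0.05, adjusted p = 1 by edgeR). Its mean was 534 ± 43.0 CPM over day 1 and 571 ± 22.5 CPM over day 2 (SD, n = 6 each). The shape of the wave was compared between days by edgeR's interaction test, which passed 0 of 9, beside 0% of all tested genes, and 0 of 9 had an unadjusted p under 0.05, beside 4.44%.

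Subunits of a complex are needed in set proportions, so ratios of their counts were taken within each library, where library size cancels. Cd8a to Cd8b1 was 1.26 ± 0.0613 (SD, n = 12), with 1.10 in CT2 of day 1 and 1.22 to 1.35 in the others. Cd3d to Cd3e had a median of 0.784, with 1.04 in CT2 of day 1 and 0.718 to 0.823 in the others. Cd3g to Cd3e had a median of 1.12, with 1.74 in CT2 of day 1 and 1.08 to 1.196 in the others. The chain ratios thus varied little in 11 libraries and were set apart in CT2 of day 1. Cd247 to Cd3e had a median of 0.448, with 0.624 in CT2 of day 1 and 0.400 to 0.489 elsewhere. Trac to Cd3e had a median of 1.18, with 1.51 in CT2 of day 1 and 1.11 to 1.22 elsewhere. These 4 ratios share Cd3e, which was at its lowest in that library. RSEM counts gave the same outlying library for each, for example 1.77 for Cd3g to Cd3e against 1.10 to 1.21.

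**Figure D4:**
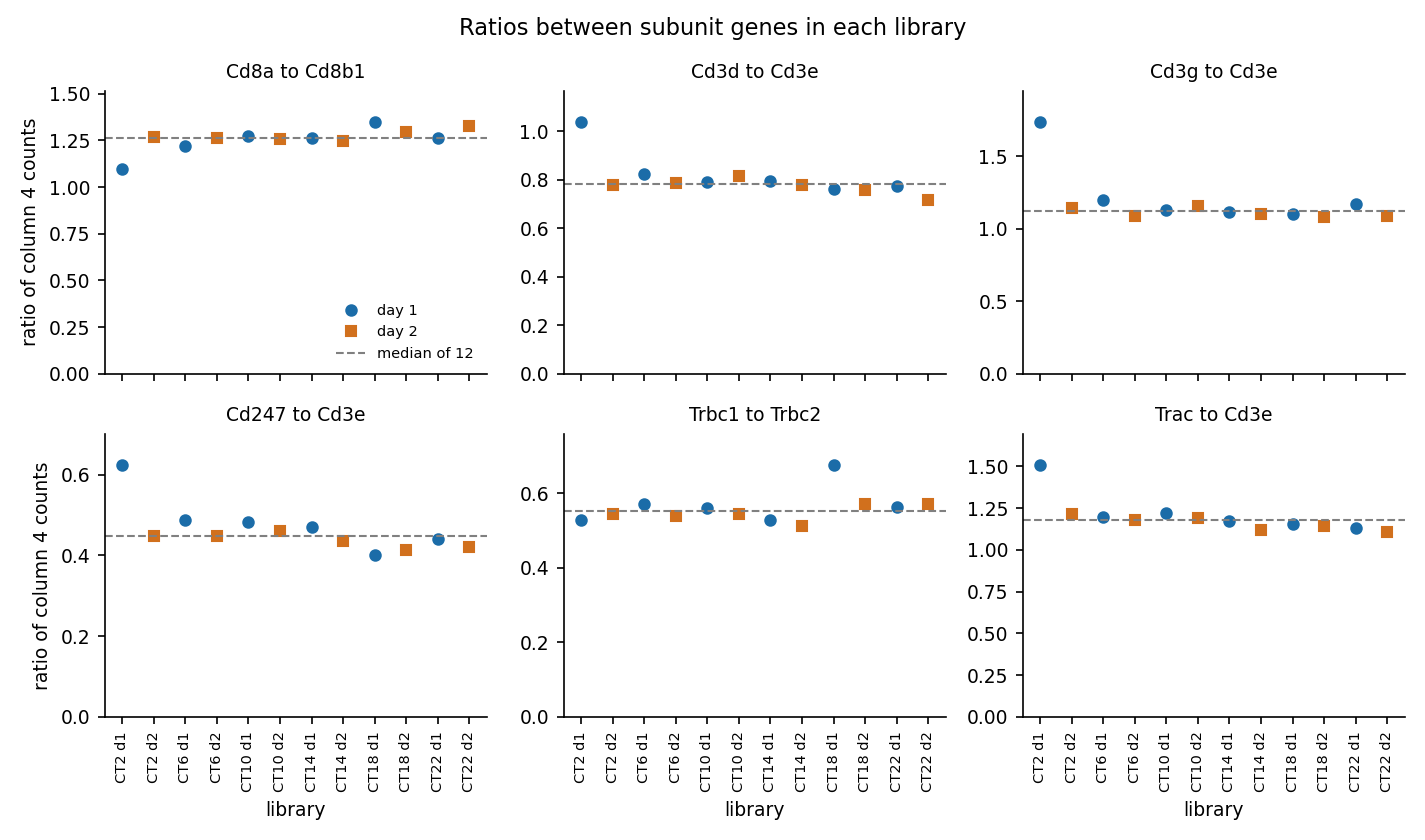
Ratio of stranded counts between subunit genes in each library, by circadian time and day (d1, d2), with the median of the 12 libraries as a dashed line and each axis starting at 0. The 4 ratios to Cd3e are highest in CT2 of day 1 and Cd8a to Cd8b1 is lowest there, while Trbc1 to Trbc2 stands out in CT18 of day 1.

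Several of the genes varied together across libraries, and part of this rested on the CT2 libraries. Cd3e was apart with all libraries, less so once CT2 of day 1 was left out. Of 36 pairs, 23 passed in Pearson correlation of log2 CPM (100000 two-sided permutations, adjusted p under 0.05 over the 36). All 23 were among the 28 pairs without Cd3e. The share of all gene pairs that would pass was not computed, so the count is not a trait of these genes. Genes outside the set, picked as the most similar of many, reached r up to 0.986 (Zfp78 with Trbc1). Those 28 had a median r of 0.783 and ran from 0.289 to 0.914. Cd3d with Cd8b1 had the highest r, 0.914 (rho = 0.888, adjusted permutation p = 0.00144 for r and 0.00258 for rho). The farthest 2 libraries of a pair were those farthest from the median of its first-named gene alone. A choice by the other gene was not computed. Without the farthest 2 libraries r of Cd3d with Cd8b1 was 0.824, and within days it was 0.920 and 0.927. Cd8a with Cd8b1, the co-receptor pair, had r = 0.795 (rho = 0.713, adjusted permutation p = 0.00624 and 0.0355), 0.669 without the farthest 2, and 0.645 and 0.973 within days. Trbc1 with Trbc2 had r = 0.830 (rho = 0.657, adjusted permutation p = 0.00624 and 0.0474), and 0.867 and 0.846 within days. Without the CT2 libraries, which were the farthest 2 for Trbc1, it was 0.283. For Trbc2, CT18 of day 1 (494 CPM) lay farther from the median of 611 CPM than CT2 of day 2 (708 CPM). The libraries kept include CT18 of day 1, whose Trbc2 value was low by stranded counts only, as in every pair with Trbc2. No correlation was taken on RSEM counts, and the part of that library in the drop was not tested. Of the 23 pairs, 8 had an r under 0.5 without their farthest 2 libraries, and 7 of these 8 include Trbc1 or Trbc2. Cd3g with Trbc2 went from 0.798 to 0.110, Cd8b1 with Trbc1 from 0.734 to 0.264, and Cd3g with Trbc1 from 0.909 to 0.407, each without both CT2 libraries. The pair of the 8 without a beta chain gene was Cd3g with Cd247, from 0.796 to 0.401. The 8 pairs with Cd3e had a median r of -0.08. Cd3e with Cd3g had r = -0.273 (rho = 0.294, adjusted permutation p = 0.395 and 0.412), 0.788 without the farthest 2 (CT2 and CT6 of day 1), and -0.412 and 0.810 within days. Without CT2 of day 1 alone it was 0.815, and 22 of the 36 pairs then passed. Among these were Cd3e with Cd3g, Cd3d (r = 0.764), Cd8a (r = 0.812) and Trac (r = 0.856). Cd3e with Cd247, Cd8b1, Trbc1 and Trbc2 still did not pass. Libraries of 1 time share that time, so the points are not fully independent.

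For each gene the 2 most similar others were sought among 9686 genes of at least 5 CPM, by Pearson r of log2 CPM over the 12 libraries, as a description. Cd2, an adhesion receptor of T cells, came first for 3 of the 9: r was 0.964 with Cd3d, 0.966 with Cd8b1 and 0.919 with Trac. Trbv16, a variable gene of the beta chain, came first for Cd3g (r = 0.969). Cd8a was most like Twnk (r = 0.947) and Pik3cd (r = 0.922), the latter a catalytic subunit of PI3 kinase in lymphocytes. Cd8b1 had Rhoh (r = 0.965), a small GTPase of lymphocytes, as its next. Trbc1 was most like Zfp78 (r = 0.986), Trbc2 like Anapc4 (r = 0.918) and Cd247 like Tonsl (r = 0.950). Cd3e was most like Sf1 (r = 0.932), a splicing factor, and Keap1 (r = 0.931). These values take in the shared shifts of CT2.

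Genes that act with the receptor were described by the same tests. Their counts stand beside 13.3% of all tested genes at an unadjusted p under 0.05 for the wave and 12.7% for the times, and 49.2% of all tested genes had a positive difference at CT2. Among 19 adaptors and surface regulators, 0 passed the wave and 0 the test of times, and at an unadjusted p under 0.05 there were 2 and 6. Their median difference at CT2 was 0.12 on the log2 scale, and 16 of 19 had a positive one. Themis, needed for T cell selection, had 252 ± 25.1 CPM and differed by 0.35 ± 0.07 from CT14 to CT2 (adjusted p = 0.131 by edgeR), and Sit1, a membrane adaptor, had 47.7 ± 5.49 CPM and differed by 0.39 ± 0.07 from CT18 to CT2 (adjusted p = 0.121). Lax1, another adaptor, had a wave of 0.11 ± 0.02 that peaked at 14.5 h (adjusted p = 0.238), and the tetraspanin gene Cd53 had 0.16 ± 0.04 with a peak at 0.408 h (adjusted p = 0.252). Among 19 proximal kinases, phosphatases and ligases, 0 passed either test, with 4 and 2 at an unadjusted p under 0.05. Their median CT2 difference was 0.0015, and 10 of 19 were positive. The Tec-family kinase gene Txk had a wave of amplitude 0.12 ± 0.03 that peaked at 5.18 h, and the phosphatase gene Ptpn6 had 0.12 ± 0.03 with a peak at 17.6 h (adjusted p = 0.261 and 0.271 by edgeR). Among 16 transcription factors of these loci, 0 passed either test, with 1 and 2 at an unadjusted p under 0.05. The median CT2 difference was -0.02, and 6 of 16 were positive. The wave of Patz1 had amplitude 0.12 ± 0.03 and peaked at 12.6 h (adjusted p = 0.254 by edgeR), Myb 0.10 ± 0.04 with a peak at 7.65 h (adjusted p = 0.380), and Ets1 differed by 0.39 ± 0.10 from CT14 to CT10 (adjusted p = 0.372).

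The 3 CD3 genes of chromosome 9 share a cluster but differed in 1 library, CT2 of day 1, and their upstream sequences are shown. In CT2 of day 2 they were alike in CPM. There Cd3e and Cd3d lay 0.13 and Cd3g 0.15 above the other times on the log2 scale. They are the 250 bases before each RefSeq start in GRCm38.p6, read 5′ to 3′ on the gene's strand (Cd3g chr9:44980432-44980681, Cd3d chr9:44981536-44981785, Cd3e chr9:45009612-45009861). Capitals mark the ETS motif AGGAAGT, found here in its reverse complement.
Cd3g: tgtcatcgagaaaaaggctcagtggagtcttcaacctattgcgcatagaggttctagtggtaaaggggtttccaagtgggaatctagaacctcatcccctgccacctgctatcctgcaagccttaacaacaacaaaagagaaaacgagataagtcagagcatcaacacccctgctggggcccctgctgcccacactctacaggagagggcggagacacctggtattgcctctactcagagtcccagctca
Cd3d: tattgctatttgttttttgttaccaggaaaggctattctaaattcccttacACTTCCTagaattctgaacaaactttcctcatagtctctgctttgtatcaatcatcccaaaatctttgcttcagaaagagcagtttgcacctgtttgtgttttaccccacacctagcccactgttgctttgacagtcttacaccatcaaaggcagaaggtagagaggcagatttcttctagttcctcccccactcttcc
Cd3e: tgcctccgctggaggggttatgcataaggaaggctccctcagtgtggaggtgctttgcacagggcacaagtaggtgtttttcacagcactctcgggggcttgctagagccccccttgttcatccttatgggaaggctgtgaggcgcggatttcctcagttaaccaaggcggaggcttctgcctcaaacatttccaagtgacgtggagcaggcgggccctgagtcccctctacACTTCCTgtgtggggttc
The RefSeq promoter table held 5 of the 9 genes (Cd247, Cd3d, Cd3e, Cd3g and Cd8a). Both strands of each were searched for 5 motifs. The E-box CACGTG of clock activators (in 6.02% of 32851 promoters), the receptor site AGGTCA of ROR and REV-ERB (14.0%), the D-box TTATGTAA (0.819%) and the RUNX motif TGTGGT (14.0%) had 0 matches in the 5. The ETS motif AGGAAGT (7.69%) had 1 match each in Cd3e (from 18 bases before the start), Cd247 (from 58) and Cd3d (from 199), and 0 in Cd3g and Cd8a. Such a match is a description of letters in this window only.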

How the data were processed

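Polyadenylated RNA had been sequenced in 12 libraries. The submitters' processing notes name the build GRCm38 with RSEM 1.2.28, STAR 2.5.1b, Trimmomatic 0.35 and bcl2fastq 2.19. The authors deposited STAR read counts per gene, in 1 column for each treatment of strand, and column 4 (stranded counts, not normalised) was used. In column 3, 77.6% to 80.9% of reads had no gene, against 11.4% to 13.9% in column 4. Rows that name no gene held 29.3% to 31.2% of counts and were left out. RSEM tables that the authors deposited gave expected counts (estimated, rounded here for tests), TPM and other values such as transcript length. Symbols and coordinates are from GENCODE M21, which matched 50376 of 50600 identifiers. Promoters are from RefSeq.

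The filter filterByExpr by circadian time kept 16396 genes. Counts were scaled by TMM and tested in edgeR 4.0.16 (R 4.3.3) by quasi-likelihood F tests over all 12 libraries, with Benjamini-Hochberg adjustment at 0.05. No day term entered the wave and time tests. ± after a log2 value or a peak time is a standard error and elsewhere an SD. Alternatives used DESeq2 1.42.0, limma 3.58.1 on log2(TPM + 1) or log2(TPM + 0.1), RLE scaling, no filter, RSEM or unstranded counts, a day block and leaving out each library. The tests were checked on simulated counts. Replicate numbers stand for the day in the labels. Over 8931 genes, day deviations correlated between 15 pairs of times from -0.613 to 0.343, with a median of 0.075 and 6 of 15 above 0.1.

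The genes, lists and tests were chosen with earlier results of these data known. Named were all 9 genes, in each companion list the 2 genes of smallest p in the wave and in the test of times, the 2 genes most like each of the 9, and defining markers, of which 1 is not reported here. Those of lists of other cell types are given by marker level only, and some of the 18 similar genes are left out. Of the core clock list, only the 2 genes of smallest p in the wave, Per2 and Tef, are given. Coding bases of Trbc1 and Trbc2 were compared exon by exon.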

Additional observations from a re-analysis of the deposited data

Results flagged for a closer look

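Within each day, the 6 libraries were searched for 1 that stood far from the rest by Dixon's 95% criterion. Of 34 such groups, 8 were marked, and chance marks about 1 in 20. The groups are not independent, since ratios reuse the same genes. The share of all genes marked by this rule was not computed, and CT2 of day 1 was shifted over all genes. The number of marks is therefore no result about these genes.

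Most marks fell on CT2 of day 1. Cd3g was at 822.8 CPM against 586 to 652 in the other libraries of that day, and Trbc1 at 440.1 CPM against 320 to 361. The ratio of Cd3d to Cd3e was 1.04 against 0.761 to 0.823, that of Cd3g to Cd3e 1.74 against 1.10 to 1.196, and that of Trac to Cd3e 1.51 against 1.13 to 1.22. In CT2 of day 2, Cd3g was again marked, at 691.7 CPM against 600 to 634.

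Both other marks concern the counting of Trbc2. The ratio of Trbc1 to Trbc2 in CT18 of day 1 was 0.676 against 0.528 to 0.573. The stranded count of Trbc2 in CT10 of day 2 was 85.8% of the RSEM count, against 87.0% to 87.7% in the other libraries of day 2.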

How the results depend on the processing

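All 9 genes stayed short of the threshold for the 24 h wave, the day difference and the wave by day under every alternative run for them. Over all genes, the wave passed 246 by DESeq2, 323 without the filter, 431 without both CT2 libraries (an alternative chosen after seeing the data) and 0 to 145 when 1 library was left out. The test of times passed 42 genes, and 516 by DESeq2, 2146 without the filter, 14 and 13 on TPM (pseudocounts 1 and 0.1), 20 with the day as replicate block, 527 without both CT2 libraries, and 6 to 1745 with 1 library left out. It passed 3 of the 9 genes by DESeq2, 4 without the filter and 0 to 3 with 1 library left out. Those 3 came without CT2 of day 2: Cd3g (adjusted p = 0.0185), Trbc1 (0.0214) and Trbc2 (0.0374) by edgeR. With the same 16396 genes tested, also chosen after seeing the data, the times passed 1800 genes and 3 of the 9 without CT2 of day 2, and 656 without CT2 of day 1. The replicate block left 0 of the 9 in the wave, the test of times and CT2 against the other times.

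CT2 against the other times, chosen after seeing the data like its alternatives, passed 1 gene, and 141 by DESeq2, 2 with RLE scaling, 943 without the filter, 4 by RSEM counts, 3 by unstranded counts and 0 to 2019 with 1 library left out. Of the 9 genes it passed 4 by DESeq2, 5 without the filter and 0 to 5 with 1 library left out, the 5 without CT2 of day 2. With the same genes tested it passed 2058 and 5 of the 9 without CT2 of day 2, and 6 without CT2 of day 1, where Cd3e was at 0.1235. With 1 library at a time, that library is assumed to vary like the others. Cd8a turned to -0.0197 on TPM, and Cd3e ran from -0.23 to 0.12 with 1 library left out. On TPM, 3 in place of 6 genes had both CT2 libraries above the rest.

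The day test passed 6 genes by DESeq2 and 0 to 2 with 1 library left out, and the wave by day 0 to 1. Day differences of 7 genes turned sign, all near 0: on TPM 0.0005 for Cd247 and 0.0137 for Cd8b1, and with 1 library left out -0.0312 to 0.0426 for Cd3d, -0.09 to 0.0185 for Cd3g, -0.0768 to 0.0039 for Cd247, -0.0367 to 0.0509 for Cd8a, -0.0687 to 0.0198 for Cd8b1, -0.027 to 0.0466 for Trac and -0.0682 to 0.0612 for Trbc2.

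By stranded counts per length, Cd3g took rank 4 and Trbc1 rank 5 in the order of levels, and so it was in TPM without CT6 of day 1 (ranks 4 to 5 for both). Ratios moved by more than their SD with unstranded counts: Cd3d to Cd3e 0.983, Cd3g to Cd3e 1.46, Cd247 to Cd3e 0.551 and Trac to Cd3e 1.45. With RSEM counts, Cd247 to Cd3e was 0.548 and Trbc1 to Trbc2 0.504. The 4 ratios that moved with unstranded counts all have Cd3e as divisor. Its unstranded counts were 82.1% to 84.7% of the stranded ones, against 97.0% to 105% for the other 8 genes. Why the counting routes differ was not tested. By rank correlation, 4 of 18 similar genes were found again.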
